A study of Mus musculus with 13 samples.

Results

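The small RNAs of the nucleolus and the Cajal body, together with the genes that carry many of them, were compared in spleen dendritic cells sorted by CD103 from mice given muramyl dipeptide (MDP) or saline. Members were taken as probe sets listed with 1 gene symbol that begins with Snord (box C/D small nucleolar RNAs), Snora (H/ACA small nucleolar RNAs) or Scarna (small Cajal body RNAs), or that is a host gene named Snhg, Gas5 or Zfas1. Where a gene had more than 1 probe set, the one with the highest mean was kept. This gave 94 members among 22180 genes: 47 box C/D RNAs, 26 H/ACA RNAs, 5 Cajal body RNAs and 16 host genes. The probe table lists 127 such symbols, and 33 of them, including Gas5, Snhg8, Snhg16 and Snord12, had no probe set of their own and were not analysed here.

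All mice were C57Bl/6 littermates labelled male and aged 6 weeks, and all carried a B16 melanoma that secretes FLT3L, a cytokine that expands dendritic cells. At 5 days after the tumour cells, they received 100 ul of PBS into the peritoneum, alone or with 50 ug of MDP, the bacterial cell wall fragment sensed by NOD2, and spleens were taken 24 h later. CD205+CD8+ dendritic cells were sorted again into CD103 low and CD103 high cells, and cells that gain or lose CD103 after MDP would change gates. The groups were PBS CD103 low (4 arrays), PBS CD103 high (3), MDP CD103 low (3) and MDP CD103 high (3). The labels do not say whether arrays of a group came from separate mice, so p-values measure the spread between these arrays. It is also not stated whether CD103 low and CD103 high arrays with the same replicate number in a treatment share a mouse. The main fit does not pair them, and a fit that does was run as an alternative.

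Box C/D RNAs guide ribose methylation of ribosomal RNA through the methylase fibrillarin, and H/ACA RNAs guide pseudouridine formation through dyskerin. Cajal body RNAs guide the same changes on spliceosomal RNAs. In mammals most of them are cut from introns of host genes as the introns are spliced out and trimmed, so a small RNA and the spliced RNA of its host come from a single transcript but decay separately. Many hosts encode ribosomal proteins or translation factors, whose transcripts typically start with a C followed by a run of pyrimidines, and others, such as Zfas1 and the Snhg genes, have spliced RNAs that are not translated into a known protein.

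Start regions are shown for host genes named in the results, those past the threshold and Snhg15, and for Snhg7 because it alone among them has the pyrimidine start described above, as 50 bases before the annotated start in lower case and the first 20 transcribed bases in capitals, 5′ to 3′, from RefSeq on GRCm38.p6.
Zfas1: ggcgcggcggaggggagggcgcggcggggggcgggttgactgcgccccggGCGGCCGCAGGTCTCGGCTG
2410006H16Rik: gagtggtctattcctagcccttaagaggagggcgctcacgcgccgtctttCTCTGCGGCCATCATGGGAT
Snhg15: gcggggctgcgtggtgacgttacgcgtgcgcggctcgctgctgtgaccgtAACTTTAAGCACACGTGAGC
Snhg7: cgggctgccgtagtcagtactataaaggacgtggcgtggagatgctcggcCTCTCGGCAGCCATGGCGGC
Ncapd2: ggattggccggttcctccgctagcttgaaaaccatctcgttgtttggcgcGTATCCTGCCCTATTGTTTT
Haus6: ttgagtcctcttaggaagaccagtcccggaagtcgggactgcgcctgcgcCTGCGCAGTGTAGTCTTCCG
They lie at chr2:167062884-167062953 on the plus strand for Zfas1, chr11:62602827-62602896 on the plus strand for 2410006H16Rik, chr11:6528741-6528810 on the minus strand for Snhg15, chr2:26640225-26640294 on the minus strand for Snhg7, chr6:125191567-125191636 on the minus strand for Ncapd2 and chr4:86612036-86612105 on the minus strand for Haus6. Of these, only Snhg7 starts with a C followed by at least 4 further pyrimidines on the coding strand, and 2410006H16Rik has a run of 4 pyrimidines in all. Over 27025 genes with a start window, 3.01% start with such a C and run, against 1 of 14 host members (Snhg7), 4.88% of the 41 measured genes around small RNA members, and 21.9% of 64 ribosomal protein genes. The letters TATAAA, searched on both strands from 250 bases before to 50 after the start, were found in 5 of 14 host members (Snhg1, Snhg3, Snhg5, Snhg7 and Snhg9, or 35.7%) and in 15.7% of all genes. In Snhg7 they begin at position -30 from the start. A match describes the letters only.

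The cells carried the transcripts of the sorted type. Itgae, which encodes CD103, ranged from 7.46 to 11.51 over the arrays. At an adjusted p under 0.05 in limma, it was higher after MDP in both CD103 low and CD103 high cells. Cd8a had a mean log2 value of 10.37, Ly75 (CD205) 9.30, Xcr1 10.03, Irf8 12.24 and Batf3 11.18, and the averaged lists of neutrophil, T cell, natural killer, erythroid and B16 melanoma markers had array means between 4.11 and 5.11. The lists of B cells (5.08 to 5.37), CD8-negative conventional dendritic cells (4.90 to 5.44), monocytes and macrophages (5.74 to 6.31) and plasmacytoid dendritic cells (6.86 to 7.10) lay higher. The 95th percentile of 1105 olfactory receptor genes, 5.12, served as the level of background. Some arrays stood apart. Xist was at 10.98 to 11.21 in 7 arrays and at 4.47 to 6.69 in 6, although all mice were labelled male. The mean of 3 Y-linked genes was 3.497 to 4.39 in those 7 arrays, below background, and 7.85 to 8.21 in the other 6. Both measures in the 7 arrays thus go against the male label. MDP CD103 low replicate 1 averaged 8.98 on a list of 8 markers of mature, CCR7-type dendritic cells, against 7.45 and 7.57 for replicates 2 and 3. Array means of 9 cell cycle genes were 9.17 to 9.31 in MDP CD103 high cells and 8.11 to 8.73 in the other 10 arrays.

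Of the 94 members, 76 had a mean above background: 38 box C/D RNAs, 20 H/ACA RNAs, 4 Cajal body RNAs and 14 host genes. The median of the member means was 6.57 for box C/D, 6.77 for H/ACA, 6.79 for Cajal body RNAs and 7.31 for host genes, against 5.27 over all genes. The highest box C/D values were those of Snord16a (10.22), Snord65 (9.03), Snord23 (9.03), Snord53 (8.96) and Snord17 (8.79). Among H/ACA RNAs, Snora33 (10.73), Snora23 (9.74), Snora28 (8.75), Snora31 (8.60) and Snora41 (7.69) were highest. The genes around these RNAs include the ribosomal protein genes Rpl4 (Snord16a) and Rps12 (Snora33), the translation factor genes Eif5 (Snora28) and Eef1b2 (Snora41) and the nuclear import receptor gene Ipo7 (Snora23). The Cajal body RNAs ran from Scarna6 (7.08) through Scarna17 (7.01), Scarna2 (6.79) and Scarna8 (5.67) to Scarna10 (5.06), the last of which was below background on average. Snhg6 (11.09), Zfas1 (10.37), Snhg1 (8.97), Snhg5 (8.61) and Snhg20 (8.28) led the host genes. Probe sets differ in how well they bind, so these values do not rank the amounts of the RNAs.

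At the low end, Snhg14, the brain-expressed host of imprinted snoRNA clusters, had a mean of 2.30, and Snora35, which lies inside the serotonin receptor gene Htr2c, had 3.76. Snord118, which is transcribed from a gene of its own and acts in the processing of ribosomal RNA, had a mean of 4.91 and stayed between 4.67 and 5.14 in all 13 arrays, with the same value, 4.94, in 5 of them. Snord13, another RNA with a promoter of its own, was well above background, with a mean of 8.24. Its arrays ranged from 7.44 to 8.81, and both ends of that range were in PBS CD103 low cells. Snord3a had no probe set of its own.

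Small RNA values varied more between arrays of the same group than other genes did. The median SD within a group was 0.268 for box C/D, 0.205 for H/ACA and 0.224 for Cajal body RNAs, against 0.136 for host genes and 0.138 over all genes. Among genes above background it was 0.254 for box C/D, 0.185 for H/ACA and 0.117 over all genes, and 483 microRNA genes had 0.204. Snord90 varied most, with 4.83, 6.45 and 5.25 in MDP CD103 low, 5.80, 6.01, 6.98 and 7.10 in PBS CD103 low, 6.54, 6.45 and 7.04 in MDP CD103 high and 7.713, 7.317 and 6.997 in PBS CD103 high cells. The 4 values of the PBS CD103 low group thus fell apart into replicates 1 and 3 and replicates 4 and 6.

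Several box C/D RNAs divided all 13 arrays in this way, by the replicate number in the titles, which the labels do not explain. The numbers 1 to 3 were compared with 4 to 6 after these values had been seen, so the following is a description. Snord87, a box C/D RNA inside Snhg6, ranged from 6.41 to 7.16 over the 7 arrays numbered 1 to 3 and from 8.03 to 8.29 over the 6 numbered 4 to 6. Snord35a lay between 5.98 and 6.71 and between 7.10 and 7.44, and Snord99 between 5.40 and 6.35 and between 6.65 and 7.10. In limma, with the groups in the fit, arrays numbered 4 to 6 were higher by 1.23 ± 0.11 (SE) for Snord87, 0.96 ± 0.09 for Snord35a and 0.95 ± 0.14 for Snord99 on the log2 scale.

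Without overlap between the number ranges, 11 members were higher in arrays 4 to 6 and 3 were lower, against 0.555% and 0.582% of all genes. The higher ones were 8 box C/D RNAs (Snord35a, Snord35b, Snord65, Snord87, Snord88a, Snord90, Snord99 and Snord111), Snora61 and the hosts Snhg12 and Snhg20. The lower ones were Snord49b, Snora78 and Scarna2. With the groups in the fit, Scarna2 differed by only -0.07 ± 0.08. Some members that overlapped differed more in that fit, such as Snord72 (0.82 ± 0.14), Snord69 (0.77 ± 0.13), Snord61 (0.50 ± 0.08) and Snord22 (-0.53 ± 0.10). Of 483 microRNA genes, 3 were higher and 3 lower.

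Host genes did not move alike. Snhg12, around Snord99 and Snora61, differed by 0.24 ± 0.09 and 2410002F23Rik, around Snord88a, by 0.34 ± 0.11, both without overlap. Also without overlap, 1110038B12Rik, around Snord52, differed by -0.49 ± 0.10 and Zbed3, around Snora47, by 0.27 ± 0.08. Snhg6 differed by 0.14 ± 0.09 and Rc3h2, around Snord90, by -0.02 ± 0.06, and both overlapped. Other genes followed the same division. Of 8 heat shock genes listed after the values were seen, 7 were lower in arrays 4 to 6 without overlap, among them Hspa1a by -0.90 ± 0.11 and Hspa1b by -1.12 ± 0.15, and Hspa8 (-0.20 ± 0.07) overlapped. Their part in the snoRNA values was not tested.

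**Figure D1:**
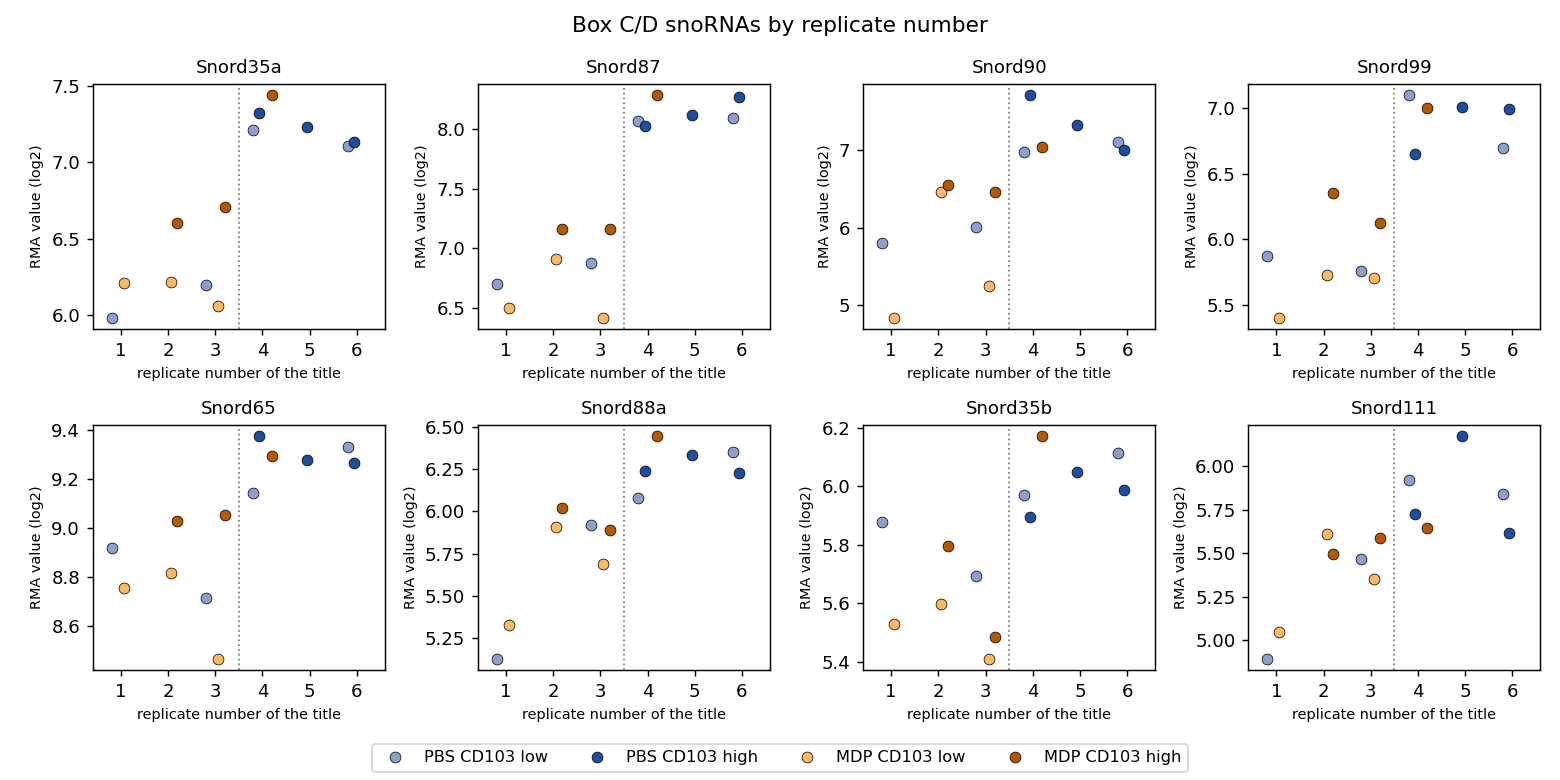
RMA values (log2) of the 8 box C/D RNAs that were higher in every array numbered 4 to 6, plotted against the replicate number in the title, with 1 point per array coloured by group; the dotted line parts numbers 3 and 4. Snord87 lies between 6.41 and 7.16 left of the line and between 8.03 and 8.29 right of it, whichever the group.

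The division crosses the groups unevenly. All MDP CD103 low arrays are numbered 1 to 3 and all PBS CD103 high arrays 4 to 6, while PBS CD103 low has 2 arrays of either range and MDP CD103 high has 2 and 1. Values with the number range as a covariate, or within a range, therefore stand beside several results below. In bulk samples of sorted cells, a change in the share of cells and a change in the RNA of each cell cannot be told apart.

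MDP was first compared with PBS within CD103 high cells. The host RNA Zfas1 fell and the Cajal body RNA Scarna10 rose. These were the 2 of 94 members that passed the threshold, an adjusted p under 0.05 in limma, where 1.82% of all genes passed. No box C/D or H/ACA RNA passed. At an unadjusted p under 0.05, 14.9% of members passed, against 13.3% of all genes: 8 were above 0 (6.77% of all genes) and 6 below (6.56%).

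Zfas1 (probe set 17379864, Entrez gene 68949) is a host of box C/D RNAs of the Snord12 family. It had values of 10.04, 10.06 and 9.94 in MDP CD103 high cells and of 10.51, 10.62 and 10.46 in PBS CD103 high cells. The MDP CD103 high arrays lay below all other arrays, since PBS CD103 low cells had 10.493, 10.384, 10.446 and 10.498 and MDP CD103 low cells 10.39, 10.52 and 10.40. After MDP, the level in CD103 high cells was 1.43-fold lower, from 10.53 ± 0.08 to 10.01 ± 0.06 (SD, n = 3 each), a log2 difference of -0.52 ± 0.07 (SE, adjusted p = 0.00502). With the number range as a covariate it was -0.53 (adjusted p = 0.046), and with the replicate number as a block across treatments (the replicate block) -0.50 (adjusted p = 0.332), which does not pass. The labels do not say what a number shared across treatments stands for, and by Xist it does not mark the same mouse. Another probe set of Zfas1, with a mean of 5.19 near background, differed by -0.14, and the mean of both did not pass (-0.33, adjusted p = 0.196).

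Scarna10 (probe set 17471059, Entrez gene 100217413) was at 5.89, 5.90 and 5.63 in MDP CD103 high cells and at 5.13, 4.10 and 3.98 in PBS CD103 high cells. The groups did not overlap, and the PBS values lay at or below background, with replicate 4 above replicates 5 and 6. CD103 low cells were in between, with 4.96, 4.83 and 5.36 after MDP and 5.27, 5.17, 4.85 and 4.74 after PBS. The fitted log2 difference was 1.41 ± 0.26 (adjusted p = 0.0154), between 4.40 ± 0.64 and 5.81 ± 0.15. Since the PBS mean is below background, the size of the rise is not measured and no fold is given. It did not pass with the number range as a covariate (1.17, adjusted p = 0.134), with the replicate block (0.85, adjusted p = 0.51), with only these arrays fitted (adjusted p = 0.0767), or without MDP CD103 high replicate 2 or 3 (adjusted p = 0.0693 and 0.0658) or PBS CD103 high replicate 5 or 6 (adjusted p = 0.0807 and 0.0852).

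Scarna10 lies inside Ncapd2, which encodes a subunit of the condensin complex that compacts chromosomes. Ncapd2 had 9.48, 9.52 and 9.30 in MDP CD103 high cells and 8.87, 8.72 and 8.42 in PBS CD103 high cells, and rose as well, by 0.76 ± 0.16 (adjusted p = 0.0318). Scarna8 lies inside Haus6, a subunit of the augmin complex that adds microtubules to the spindle. Scarna8 had 6.29, 6.11 and 6.27 against 5.72, 5.59 and 5.42, without overlap, a difference of 0.65 ± 0.22 that did not pass (adjusted p = 0.204), although it did with only these arrays fitted (adjusted p = 0.0432). Haus6 had 8.61, 8.52 and 8.51 against 7.97, 7.74 and 7.85 and rose by 0.69 ± 0.12 (adjusted p = 0.0106). The array means of the 9 cell cycle genes were also highest in MDP CD103 high cells, and 7 of these genes, among them Top2a, Mcm2 and Cdc6, were higher in this comparison, while 3 of the 8 genes of mature dendritic cells (Ccl5, Ccr7 and Relb) were lower. Their part in the Cajal body RNA values was not tested. A probe set inside an intron could also bind unspliced host RNA, which these values do not tell from the cut-out RNA.

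All 5 Cajal body RNAs lay above 0 in CD103 high cells after MDP, with a median difference of 0.43 against -0.01 over all genes, and for all 5 every MDP array exceeded every PBS array, which held for 8.96% of all genes. For Scarna6 the lowest MDP array had 6.910 and the highest PBS array 6.905. For Scarna17 they had 6.844 and 6.841, and for Scarna2 6.762 and 6.752. These gaps were far smaller than the spread within these groups. Of 10 other small RNAs such as Rn7sk, Rnu12 and Rpph1, 10 lay above 0, with a median of 0.32. These 10 RNAs also differed by number range. With the groups in the fit their median difference was -0.45, lower in arrays numbered 4 to 6. Their array medians, as deviations from each gene's mean over all arrays, were 0.29, 0.23 and -0.19 in MDP CD103 high cells. In PBS CD103 high cells they were -0.32, -0.27 and -0.17. The -0.19 is that of MDP replicate 4, so the groups overlapped. With the number range as a covariate the median of the Cajal body RNAs was 0.31, and between MDP replicate 4 and the 3 PBS arrays, which are all numbered 4 to 6, it was 0.15.

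**Figure D2:**
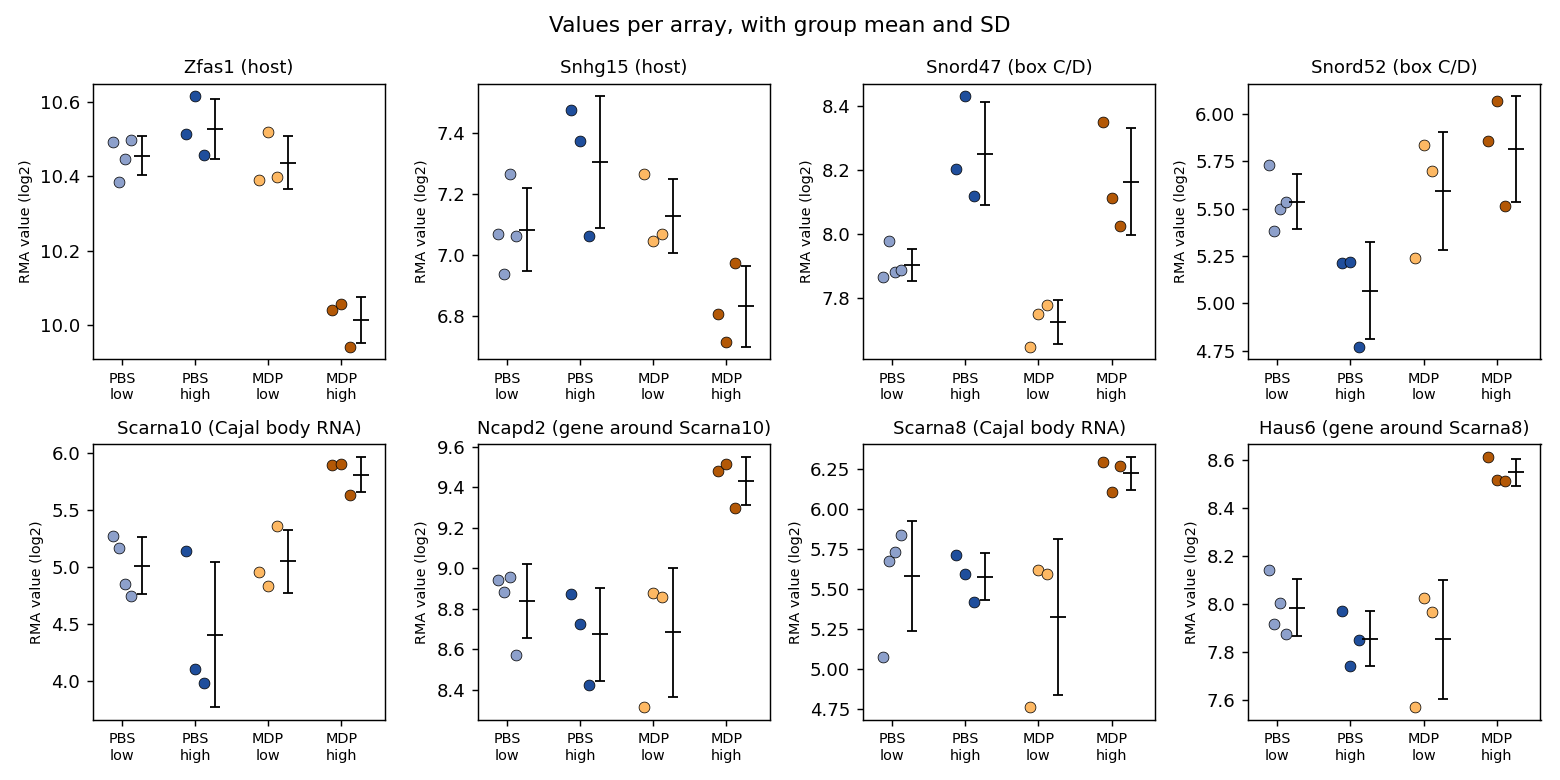
RMA values (log2) of 6 members and of Ncapd2 and Haus6, the genes around Scarna10 and Scarna8, with 1 point per array and, beside the points of each group, the mean with the SD as a bar. Zfas1 in MDP CD103 high cells (9.94 to 10.06) lies below all other arrays, while Scarna10, Ncapd2, Scarna8 and Haus6 are highest there.

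Box C/D RNAs had a median difference of 0.03 in CD103 high cells, with 26 of 47 above 0, and H/ACA RNAs 0.07, with 18 of 26 above 0, beside 46.3% of all genes. Snord52, a box C/D RNA inside the noncoding gene 1110038B12Rik, had 5.86, 6.07 and 5.51 after MDP and 5.21, 5.22 and 4.77 after PBS, and its difference of 0.75 ± 0.18 missed the threshold (adjusted p = 0.0529) and was 0.45 within the arrays numbered 4 to 6. It passed without MDP CD103 low replicate 1 (adjusted p = 0.023) or MDP CD103 high replicate 4 (adjusted p = 0.0386). The host 1110038B12Rik differed by 0.39 ± 0.18 (adjusted p = 0.365 in limma) and was itself lower in arrays numbered 4 to 6. Snord49b was next among those above 0 (0.69 ± 0.28, adjusted p = 0.302), but it follows the replicate number. It had 7.43, 7.57 and 6.63 after MDP, the last in replicate 4, and 6.31, 6.67 and 6.57 after PBS. Snord104 (-0.47 ± 0.13, adjusted p = 0.107) and Snord72 (-0.56 ± 0.28, adjusted p = 0.424) had the largest t below 0. Snord90 (-0.66) and Snord87 (-0.60) were farther below, but both follow the replicate number. Snord72 also differed by number range (0.82 ± 0.14), and over the alternatives its MDP difference ranged from -0.81 to -0.01. Snord104 passed without PBS CD103 high replicate 4 (-0.65, adjusted p = 0.0068). Among H/ACA RNAs, Snora74a (0.48), Snora62 (0.26), Snora21 (-0.19) and Snora61 (-0.13, or 0.0209 with the number range as a covariate) led by their t values, with none near the threshold. Of 6 members with several probe sets, Snora33 disagreed most here: its brighter set, used throughout, differed by 0.08 and the other by -0.78.

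Of the host genes, 6 of 16 lay above 0, and the median was -0.06. Snhg15, a noncoding host gene, had 6.81, 6.72 and 6.98 after MDP against 7.48, 7.37 and 7.06 after PBS, a difference of -0.47 ± 0.12 (adjusted p = 0.0726) in which the groups did not overlap. Snhg7 (0.23) and Snhg1 (0.13) were the highest by t. Arrays did not overlap for 7 of the 16, against 19.0% of all genes: Zfas1, Snhg12, Snhg15 and Snhg20 were below and Snhg1, Snhg5 and Snhg7 above. Snhg12 and Snhg20 are also among the members that followed the replicate number.

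RefSeq places 63 of the 78 small RNA members inside 50 measured genes, of which 41 encode proteins, 11 of them ribosomal proteins, and 9 are noncoding. The table gives no strand, so this is a position inside the span of a gene. A further 11, including Snord47 and Snord104, lie in genes without a probe set of their own, and Snord118, Snord13, Snord89 and Scarna2 lie in none. In CD103 high cells, where 1.82% of all genes passed between MDP and PBS, 3 of the 50 genes did: Ncapd2, Haus6 and 2410006H16Rik. The last of these is a noncoding RNA around Snord49a, Snord49b and Snord65. It had 9.89, 10.04 and 10.07 after MDP and 10.35, 10.36 and 10.44 after PBS, without overlap, and fell by 0.38 ± 0.07 (adjusted p = 0.0152).

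The small RNAs inside 2410006H16Rik did not all share that direction, at 0.17 for Snord49a, 0.69 for Snord49b and -0.18 for Snord65, none past the threshold. Snord49b and Snord65 also follow the replicate number. Over 64 pairs of a small RNA and the gene around it, both had the same sign in 35 for MDP against PBS in CD103 high cells, 34 in CD103 low cells, 30 for CD103 high against low in MDP mice and 41 in PBS mice. Pairs that share a host are not independent: Snhg12 alone holds Snora16a, Snora44, Snora61 and Snord99, and Snhg3 holds Snora73a and Snora73b. Even inside Snhg12, which differed by -0.26, the RNAs ran from -0.39 (Snord99) to 0.06 (Snora16a).

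**Figure D3:**
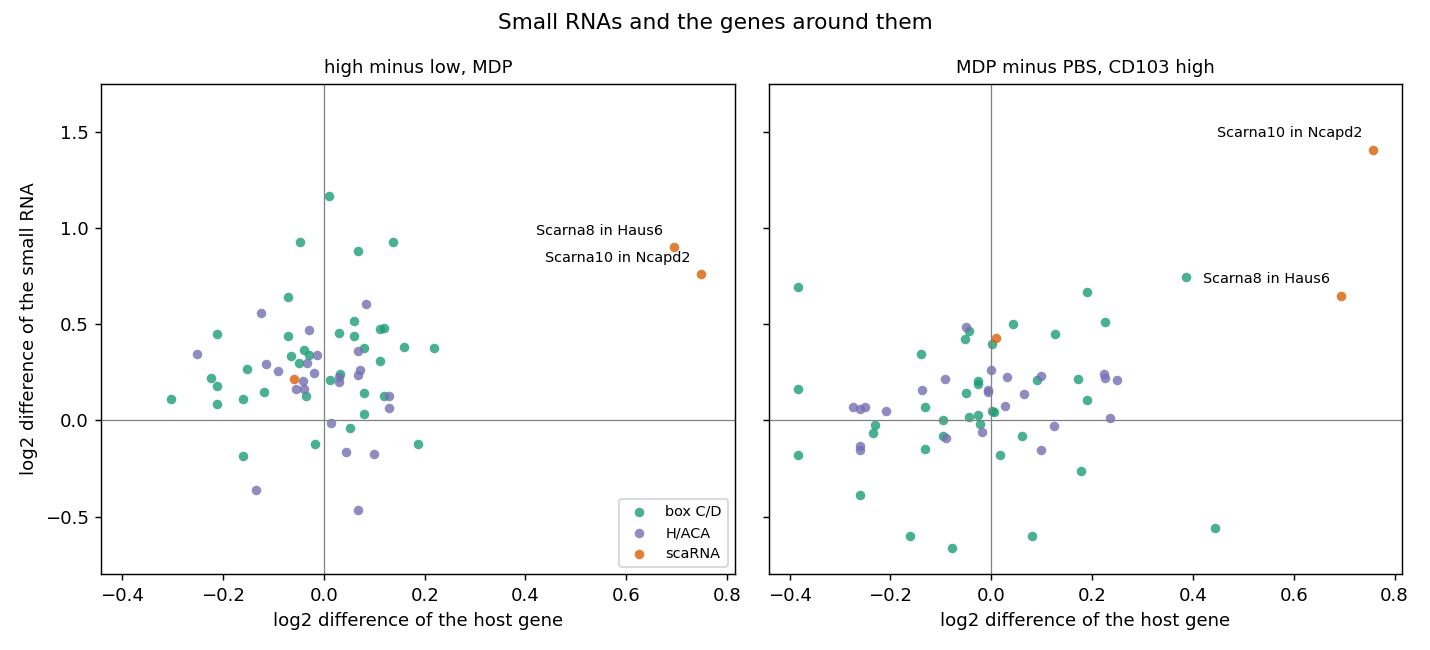
Log2 difference of a small RNA (vertical axis) against that of the gene around it (horizontal axis), 1 point per pair, coloured by class, for CD103 high minus low in MDP mice on the left and MDP minus PBS in CD103 high cells on the right. Scarna10 in Ncapd2 (1.41 against 0.76) and Scarna8 in Haus6 (0.65 against 0.69) stand apart at the right of the right panel.

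CD103 high were next compared with CD103 low cells within MDP mice. Small nucleolar RNAs tended to lie above 0 and host genes did not. The median difference was 0.27 for box C/D RNAs, with 40 of 47 above 0, and 0.22 for H/ACA RNAs, with 20 of 26 above 0, beside 45.7% of all genes and a median of -0.01. The median of the host genes was -0.02 (7 of 16 above 0), and that of microRNA genes was 0.03. One member, Zfas1, passed the threshold, where 0.523% of all genes did. At an unadjusted p under 0.05, 25.5% of members passed, against 10.2% of all genes: 17 were above 0 (4.81% of all genes) and 7 below (5.36%).

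The class medians per array lay close together in some arrays of these groups. For box C/D RNAs, as deviations from each gene's mean over 13 arrays, they were -0.24, 0.04 and -0.16 in MDP CD103 low and 0.16, 0.02 and 0.08 in MDP CD103 high cells, so the groups overlapped. H/ACA RNAs had -0.27, 0.01 and -0.06 against 0.10, 0.02 and 0.10, with no overlap, the highest CD103 low array having 0.01 and the lowest CD103 high array 0.02. The lowest array in both classes was MDP CD103 low replicate 1, which also stood apart in the genes of mature dendritic cells. Without it the medians of the differences were 0.17 and 0.12. Within the arrays numbered 1 to 3, 2 against 3, they were 0.27 and 0.20, with 42 of 47 and 20 of 26 above 0.

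**Figure D4:**
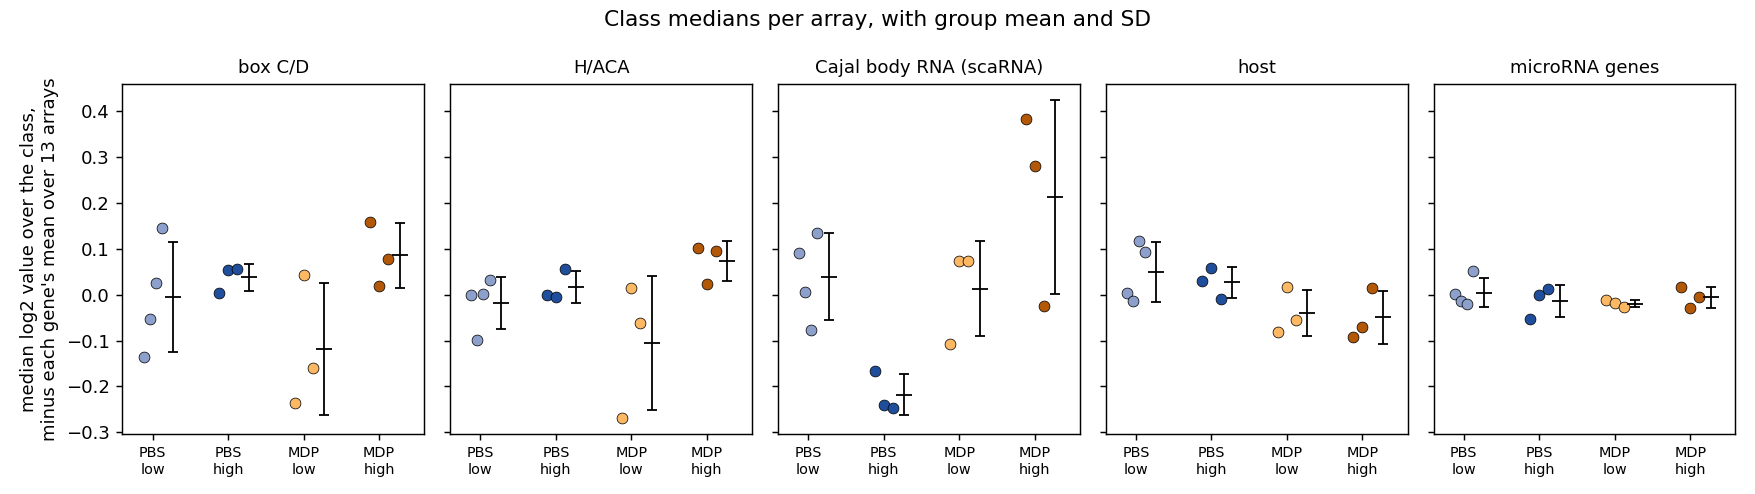
Median over the members of a class of the log2 value minus each gene's mean over 13 arrays, 1 point per array, with the mean and SD of each group beside the points; microRNA genes are shown for comparison. Box C/D medians in MDP CD103 low run from -0.24 to 0.04 and in MDP CD103 high from 0.02 to 0.16, and Cajal body RNAs are lowest in PBS CD103 high, at -0.25 to -0.17.

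In MDP mice, Zfas1 was lower in the CD103 high subset, at 10.01 ± 0.06 against 10.44 ± 0.07 (SD, n = 3 each), a log2 difference of -0.42 ± 0.07 (SE, adjusted p = 0.0247) or 1.34-fold. The groups did not overlap. For the dimmer probe set of Zfas1, near background, the difference was -0.85. The call held with the number range as a covariate (adjusted p = 0.0354) and was lost without any 1 of the 6 MDP arrays (adjusted p of 0.0513 to 0.101), with only these arrays fitted (adjusted p = 0.183) or with the replicate block across treatments (adjusted p = 0.146). Snord47, one of the box C/D RNAs of the Gas5 cluster, had 8.35, 8.11 and 8.03 in CD103 high and 7.65, 7.75 and 7.78 in CD103 low cells, a difference of 0.44 ± 0.10 (adjusted p = 0.0794). It passed when same-numbered arrays of a treatment were taken as a replicate block (adjusted p = 0.0446).

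Other box C/D RNAs that led by t were Snord65 (0.45 ± 0.14, adjusted p = 0.271), Snord104 (-0.41 ± 0.13, adjusted p = 0.273) and Snord55 (-0.31, adjusted p = 0.365). The H/ACA RNAs with the largest t were Snora7a (0.34), Snora47 (0.30), Snora44 (-0.47) and Snora21 (-0.30). Arrays did not overlap for 9 box C/D and 8 H/ACA RNAs that were higher, against 6.43% of all genes, and for 1 and 2 that were lower, against 7.93%. The higher ones included Snord47, Snord87, Snora23 and Snora69. Of these, Snord87 had 7.16, 7.16 and 8.29 in CD103 high against 6.50, 6.91 and 6.41 in CD103 low cells, and its 8.29 comes from the 1 array of the comparison that is numbered 4.

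Scarna8 (0.90 ± 0.22, adjusted p = 0.115) and Scarna10 (0.76 ± 0.26, adjusted p = 0.299) were also higher on average, without overlap, while Scarna2 (-0.21) and Scarna17 (-0.18) lay below 0. Haus6 was higher by 0.69 ± 0.12 (adjusted p = 0.0245), the 1 of 50 genes around small RNAs that passed, beside 0.523% of all genes. Ncapd2 differed by 0.75 ± 0.16 (adjusted p = 0.0665). In the same comparison, 5 of the 9 cell cycle markers were higher and 3 of the 8 markers of mature dendritic cells were lower. Of 5 markers of CD8-negative conventional dendritic cells, 4 lay below 0 (median -0.35), and Sirpa was lower, with a difference of -0.50 ± 0.09 (adjusted p = 0.0308). Their part in these values was not tested. Among host genes, Snhg1 (0.22, adjusted p = 0.348) and Snhg4 (0.10) had the largest t above 0, and Snhg15 (-0.29, adjusted p = 0.408) was next below Zfas1.

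**Figure D5:**
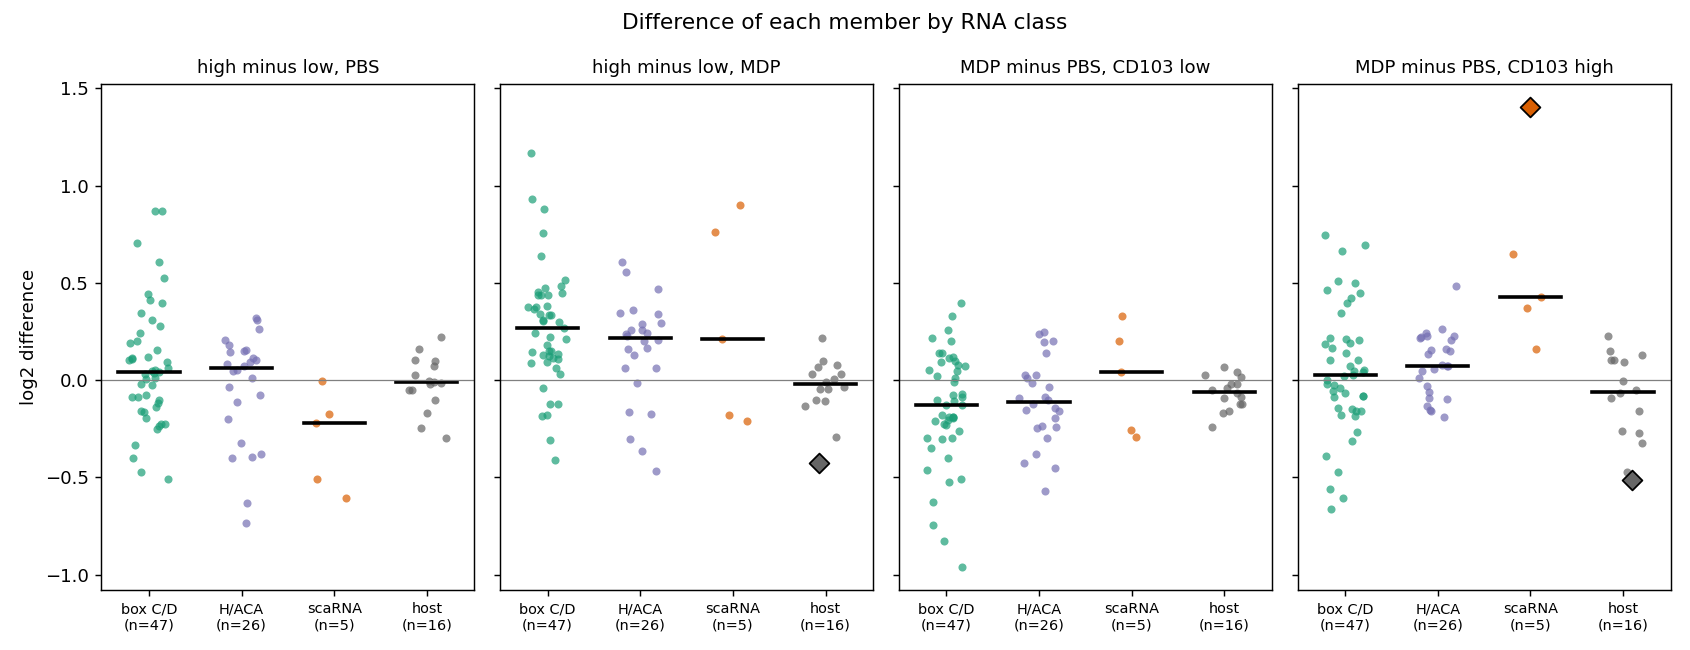
Log2 difference of every member in the 4 comparisons, by class, with 1 point per gene, black lines for class medians and large diamonds for members with an adjusted p under 0.05. In MDP mice 40 of 47 box C/D RNAs lie above 0 between the subsets, and in CD103 high cells all 5 Cajal body RNAs lie above 0 after MDP.

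Between the subsets of PBS mice, no member passed the threshold in limma, where 0.0766% of all genes did, and 13.8% of members had an unadjusted p under 0.05, against 8.52% of all genes: 6 above 0 (4.33% of all genes) and 7 below (4.19%). The medians were 0.04 for box C/D RNAs (28 of 47 above 0, beside 48.9% of all genes), 0.06 for H/ACA RNAs (16 of 26) and -0.01 for host genes (6 of 16). Within the arrays numbered 4 to 6, 3 against 2, the box C/D median was -0.01 and the H/ACA median -0.02. All 5 Cajal body RNAs lay below 0, with a median of -0.22, and with -0.27 within that range. Scarna6 was 1 of 4 members whose CD103 high arrays all lay below the CD103 low arrays, with Snord52, Snord55 and Snora74a (4.05% of all genes), and Snord47, Snord61 and Snord72 were the 3 that lay above without overlap (4.48%). Snord61 and Snord72 were also higher in arrays numbered 4 to 6, by 0.50 ± 0.08 and 0.82 ± 0.14 with the groups in the fit.

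Scarna6 had 6.77, 6.90 and 6.65 in CD103 high and 7.27, 7.30, 7.18 and 7.37 in CD103 low cells of PBS mice, a difference of -0.51 ± 0.15 (adjusted p = 0.37). Scarna10 differed by -0.61 ± 0.24 (adjusted p = 0.524). The box C/D RNAs with the largest t were Snord47 (0.35 ± 0.09, adjusted p = 0.305), Snord72 (0.87 ± 0.26, adjusted p = 0.37), Snord52 (-0.47) and Snord83b (-0.23). Snord72 divided the PBS CD103 low arrays by number, at 6.82 and 6.95 in replicates 1 and 3 and 7.53 and 7.97 in replicates 4 and 6, against 8.20, 8.23 and 8.13 in CD103 high cells. The H/ACA RNAs were Snora30 (-0.40 ± 0.12, adjusted p = 0.366), Snora74a (-0.63), Snora2b (0.31) and Snora62 (0.26), and the host genes Snhg15 (0.22), Snhg12 (0.16), Snhg17 (-0.30) and Snhg7 (-0.25). The remaining probe sets of Snhg17, with means of 7.29 and 6.94, went the other way, at 0.19 and 0.06. A direction of Snhg17 is therefore not established.

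Averaged over the treatments, 1 member, Snord47, passed between the subsets, where 0.126% of all genes did. At an unadjusted p under 0.05 in limma, 28.7% of members passed, against 9.56% of all genes: 21 were above 0 (1016 of 22180 genes) and 6 below (1105). The medians were 0.14 for box C/D RNAs (35 of 47 above 0, beside 46.4% of all genes) and 0.13 for H/ACA RNAs (19 of 26). They were -0.15 for Cajal body RNAs (2 of 5) and -0.03 for host genes (5 of 16). Snord47 (probe set 17218680, Entrez gene 100217446) was higher in CD103 high cells by 0.39 ± 0.07 (adjusted p = 0.0485) or 1.31-fold. Group means were 7.90 ± 0.05 (SD, n = 4) in PBS CD103 low, 8.25 ± 0.16 in PBS CD103 high, 7.73 ± 0.07 in MDP CD103 low and 8.16 ± 0.17 (n = 3 each) in MDP CD103 high cells. In both treatments every CD103 high array lay above every CD103 low array, with PBS values of 8.20, 8.43 and 8.12 against 7.87, 7.98, 7.88 and 7.89. The call was narrow: it was lost without any 1 of the 13 arrays (adjusted p of 0.0675 to 0.135) and with the number range as a covariate (0.44, adjusted p = 0.0861) or the replicate block (0.37, adjusted p = 0.33). Snord65 (0.36, adjusted p = 0.246), Zfas1 (-0.18, adjusted p = 0.26) and Snora44 (-0.43, adjusted p = 0.298) followed.

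MDP against PBS within CD103 low cells gave no call among the members in limma, and 0.00451% of all genes passed. At an unadjusted p under 0.05, 13.8% of members passed, against 6.06% of all genes: 3 above 0 (3.05% of all genes) and 10 below (3.0%). Medians were -0.13 for box C/D RNAs (17 of 47 above 0, beside 51.5% of all genes), -0.11 for H/ACA RNAs (8 of 26), 0.04 for Cajal body RNAs (3 of 5) and -0.06 for host genes (4 of 16). Without MDP CD103 low replicate 1 the first and second were -0.06 and -0.07, and within the arrays numbered 1 to 3, 3 against 2, they were -0.10 and -0.07. The Cajal body median turned to -0.12 with the number range as a covariate, -0.05 within that range (2 of 5 above 0), -0.16 with the replicate block and -0.11 without MDP CD103 low replicate 3. Arrays did not overlap for 4 box C/D RNAs that were lower (Snord35b, Snord47, Snord83b and Snord99), against 2.52% of all genes. All MDP arrays here are numbered 1 to 3, and Snord35b and Snord99 follow the replicate number: Snord99 had 5.40, 5.73 and 5.71 after MDP, against 5.87 and 5.76 in PBS replicates 1 and 3 and 7.10 and 6.69 in replicates 4 and 6.

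Snord35b had 5.53, 5.60 and 5.41 after MDP and 5.88, 5.69, 5.97 and 6.12 after PBS (-0.40, adjusted p = 0.754). Snora61 (-0.30), Snord83b (-0.30) and Snora47 (-0.23) were the next below 0 by t, and Snord37 (0.40), Snord43 (0.33), Snora15 (0.25) and Snora21 (0.20) had the largest t above 0 in their classes. Scarna17, at 7.27, 7.49 and 7.08 after MDP and 6.82, 6.98, 6.87 and 7.15 after PBS, differed by 0.33 (adjusted p = 0.787). Of the remaining Cajal body RNAs, Scarna2 had 0.20, Scarna6 -0.29 and Scarna8 -0.26. Zfas1 was at 10.44 ± 0.07 after MDP (SD, n = 3) and 10.46 ± 0.05 (n = 4) after PBS. Its dimmer probe set, near background with a mean of 5.19, differed by 0.70 here. Snhg10 (-0.24), Snhg12 (-0.17), Snhg5 (0.07) and Snhg15 (0.04) led the host genes.

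The difference between the subsets in their response to MDP was tested as an interaction. Its class medians were 0.21 for box C/D RNAs (37 of 47 above 0, beside 47.3% of all genes) and 0.22 for H/ACA RNAs (21 of 26). They were 0.72 for Cajal body RNAs (4 of 5) and 0.02 for host genes (9 of 16). No member passed in limma, where 0.0721% of all genes did, and 6 members above 0 (4.75% of all genes) and 4 below (4.89%) had an unadjusted p under 0.05, 9.63% of all genes in either direction. Zfas1 (-0.50 ± 0.10, adjusted p = 0.0843) and Scarna10 (1.36 ± 0.35, adjusted p = 0.158) came nearest, so a response of Zfas1 that differs between the subsets was not shown at the threshold. Scarna10 passed without PBS CD103 high replicate 4 (1.73, adjusted p = 0.0163), as did Snord104 (-0.70, adjusted p = 0.0436). Snhg15 (-0.51, adjusted p = 0.294), Scarna6 (0.72, adjusted p = 0.275), Snord104 (-0.52, adjusted p = 0.353) and Snord52 (0.69, adjusted p = 0.36) followed. The average of both MDP responses also had no member past the threshold, where 0.185% of all genes passed. At an unadjusted p under 0.05 in limma, 7 members lay above 0 (6.4% of all genes) and 13 below (5.41%). In either direction 11.8% of all genes passed. Of these 13 members, 7 were box C/D RNAs. Most MDP arrays are numbered 1 to 3 and most PBS arrays 4 to 6. This average is therefore mixed with the difference by number range. Its smallest p-values belonged to Zfas1 at -0.27 ± 0.05 (adjusted p = 0.0538), Scarna10 at 0.72 (adjusted p = 0.119, or 0.0129 without PBS CD103 high replicate 4) and Scarna17 at 0.35 ± 0.09 (adjusted p = 0.145). Class medians of this average were -0.04 for box C/D RNAs (20 of 47 above 0, beside 47.9% of all genes) and -0.05 for H/ACA RNAs (10 of 26). They were 0.20 for Cajal body RNAs (5 of 5) and -0.04 for host genes (5 of 16).

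The genes of the proteins that bind, assemble or mature these RNAs were read from 6 lists. In CD103 high cells after MDP, Dkc1, which encodes the pseudouridine synthase dyskerin of H/ACA particles, rose by 0.43 ± 0.09 (adjusted p = 0.0386), the 1 of 4 core proteins of H/ACA particles that passed, and Gar1 of the same list had 0.26 (adjusted p = 0.244). No other list had a member past the threshold in this comparison. Dkc1 was thus the only call in the 6 lists, where 1.82% of all genes passed. The medians were 0.18 for the 4 H/ACA proteins, 0.17 for the 3 measured box C/D proteins (Nop56, Nop58 and Snu13), 0.13 for 11 assembly factors, 0.20 for 7 genes of Cajal bodies and telomerase, 0.08 for 14 processing and decay genes and 0.03 for 23 genes of RNA polymerase I and the nucleolus. The smallest p in these lists belonged to Nop58 (0.19), Tcof1 (0.40), Terc, the H/ACA-type telomerase RNA (0.34), Xpo1, the nuclear export receptor (0.46), and Myc (0.49), with adjusted p from 0.0826 to 0.405. In the comparisons within PBS mice, within MDP mice and within CD103 low cells, no member of the 6 lists passed.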

How the data were processed

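RNA of 13 samples was hybridised to Mouse Gene 2.0 ST arrays after 400 ng was pre-amplified, per the labels. Per the submitters' processing notes, the authors used Affymetrix Expression Console with RMA, which corrects background and makes the arrays' distributions alike, so the deposited table holds log2 values per probe set. No version or genome build was given in the sources used here. Of 41345 probe sets, 23521 had 1 symbol, 1814 several and 16010 none listed; the first gave 22180 genes, by the probe set with the highest mean. In limma 3.58.1, under R 4.3.3, a mean per group was fitted to all arrays, followed by eBayes (9 residual and 3.86 prior degrees of freedom), two-sided, with Benjamini-Hochberg over all genes and a threshold of 0.05. Tables and plots used Python 3.11.15, pandas 2.3.3, numpy 2.4.6 and matplotlib 3.10.9. The fit was tested on simulated data. The number of arrays limits the precision.

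Members and lists were chosen with earlier results of these data known. Named were members past the threshold, the 2 largest rises and falls by t in each class and comparison, the 5 highest means of each class, always Gas5, Zfas1, Snhg1, Scarna10, Snord118 and Snord3a where measured, genes around small RNAs, and of the 6 protein lists the members past the threshold or else the smallest p; others were chosen after their values were seen. Alternatives were the mean of probe sets, a filter at the olfactory level, other scalings, another variance model, fewer arrays, replicate blocks, Xist or the number range as a covariate, and each array left out. The replicate block within a treatment and the number range were added after seeing the data. Same-numbered arrays of a treatment deviated together, with correlations of 0.25, 0.12, 0.22 and 0.29 in the 4 pairs. Those numbers were taken to pair arrays in the replicate block within a treatment only. Differently numbered arrays were not compared, so these correlations do not establish a pairing. Across treatments the correlations of same-numbered arrays ran from -0.13 to 0.40, the highest between PBS CD103 low and MDP CD103 high replicate 4. Xist was alike within each of the 4 pairs. Between MDP CD103 low and PBS CD103 low it was 6.27 against 11.16 in replicate 1 and 11.01 against 6.69 in replicate 3. Sequences came from RefSeq start windows, held for 14 of 16 host members and 41 of 50 measured hosts, and none for the small RNAs themselves were used here.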

Additional observations from a re-analysis of the deposited data

How the results depend on the processing

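Of 158 recomputed counts of calls, 114 stayed within 1.5 times and 44 moved. Of 588 class medians 563 stayed within the spread between arrays, and of 2356 values of single members 2288 kept their direction and side of the threshold. Calls between the subsets in MDP mice were 2 (Zfas1 and Snord47) with genes below the olfactory level left out, with a variance trend and robust fit, or with the replicate block within a treatment, and 0 with only the arrays compared or with the replicate block across treatments. Calls for MDP in CD103 high cells were 4 (with Snhg15 and Snord52) under quantile normalization or the trend, 1 with the mean of probe sets or the number covariate, and 0 with the replicate block. The average over treatments had 0 calls between the subsets under array median centring, quantile normalization, the replicate block, and the Xist or number covariate. The average MDP response and the interaction had 1 call each, Zfas1, with the olfactory filter or the trend. The block within a treatment changed no other count of calls.

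With the replicate block, class medians moved to -0.0394 (H/ACA, subsets in PBS mice), -0.16 (Cajal body RNAs, MDP in CD103 low), 0.14 and 0.0219 (box C/D and host genes, MDP in CD103 high) and -0.0855 (host genes, subsets on average), and Snhg12 between the subsets of PBS mice turned to -0.0029. With the number covariate the first pair were -0.024 and -0.12, and Snora61 (MDP in CD103 high, 0.0209) and Snora23 (average MDP response, 0.056) turned sign. With the olfactory filter the Cajal body medians were 0.0173 between the subsets in MDP mice and 0.38 for the interaction. With the mean of probe sets the host median for the interaction was -0.0428 and the average MDP response of Zfas1 turned to 0.0072.

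With each array left out, calls ranged from 0 to 1 between the subsets in MDP mice, 1 to 3 for MDP in CD103 high cells, 0 to 0 for the subsets on average, 0 to 1 for the average MDP response and 0 to 2 for the interaction (1 and 2 without PBS CD103 high replicate 4). Cajal body medians ranged from 0.0724 to 0.41 between the subsets in MDP mice, -0.11 to 0.15 and 0.33 to 0.57 for MDP in CD103 low and high cells, 0.18 to 0.34 for its average and 0.58 to 0.92 for the interaction. H/ACA medians ranged from 0.12 to 0.27 between the subsets in MDP mice and 0.069 to 0.23 for the interaction, and host medians from -0.09 to -0.0026 for MDP in CD103 high cells. Signs turned in CD103 low cells after MDP for Scarna8 (-0.42 to 0.0248), Snhg15 (-0.0265 to 0.10) and Snhg5 (-0.0255 to 0.13), for Scarna10 between the subsets on average (-0.11 to 0.18) and for Scarna2 in the interaction (-0.11 to 0.0339). Scarna10 lay near background, where differences are least certain. The cause of the moves was not tested.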
